A study of Mus musculus with 15 samples.

Results

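Collagens, laminins and integrins were followed on 15 two-colour cDNA arrays, each of which set a lymphoid ES cell line of the mouse after treatment against the same line without it (ES stands for embryonic stem). The genes were taken by symbol alone: every symbol that starts with Col, a number and the letter a, with Lama, Lamb or Lamc and a number, or with Itga or Itgb, leaving out Lama5. This gave 51 genes on 82 probes, of 9834 named genes on 13891 probes. They are 27 collagen chains, 5 laminin chains, 10 genes named Itga and 9 named Itgb. Among the Itgb genes, Itgb1bp2, Itgb3bp and Itgbl1 are not integrin chains but share the start of the symbol. The treated RNA carried Cy5 on 8 arrays, numbered 1 to 8, and Cy3 on the dye swaps, 7 arrays numbered 9 to 15. The treatment, its dose and its duration are not given in the labels, nor is the number of cultures, so the p-values measure the spread between arrays, which may be technical, and dye swaps may repeat the same RNA. The protocols in the labels describe thawed organs and pooled control animals, which a cell line does not have, so the reference is named here only as the sample labels name it.

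Collagens are secreted chains that wind into rigid helices. The fibrillar kinds give tissues tensile strength, and the network kinds form the sheet of basement membranes. Laminins assemble from an alpha, a beta and a gamma chain and build the other sheet of that membrane, which appears in the early embryo and lies under most epithelia. Integrins are receptors of an alpha and a beta chain that hold cells to collagen, laminin or other cells and signal to the cytoskeleton. Blood cells carry their own set of integrins for contact with vessel walls and with each other.

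The values are log2 ratios of both channels on an array, so they hold no expression level, and neither the labelled cell type nor the presence of any gene could be checked from its markers. The direction of the deposited ratio is not stated. Channels read as empty left placeholders above 0 in all 1117 cases with the treated RNA in Cy5 and below 0 in all 882 cases with it in Cy3. On this basis a log2 ratio above 0 is read here as more RNA in the treated cells, which is an assumption. The same signs would arise from untreated over treated RNA if the other channel were the empty one. They would also arise from unturned ratios if the untreated channel were always the empty one. A pair of components is reported for each gene. The treatment estimate is the mean of both dye orientations. The dye effect is 0.5 times what remains when the mean of the Cy3 orientation is taken from that of the Cy5 orientation, and it would be the treatment effect if the swaps still had to be turned. Arrays of opposite orientation correlated over probes at a median r of -0.058 and arrays of the same orientation at 0.083. Arrays 7, 8 and 15 reached at most 0.083 with any other array. In such bulk RNA, fewer cells of a type and less RNA per cell cannot be told apart.

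None of the collagen, laminin and integrin genes taken here passed limma's test for the treatment estimate. Lama5, left out by the rule at the start, is not reported here, so no count of laminins covers it. The fit took genes measured on 4 or more arrays in each orientation, which 49 of the 51 were. Of these, 25 lay above 0 and 24 below, and 0 passed at an adjusted p under 0.05, where 0.0412% of all 9720 fitted genes did. The lowest adjusted p was 0.704. Without adjustment, 1 gene had a p under 0.05, Col28a1, or 2.04% of the 49, against 7.02% of all genes. The median estimate of the 49 genes was 0.0044 and that of all genes 0.0054 (log2), and the standard deviation of the estimates was 0.144 for the 49 and 0.146 for all.

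The intervals of the estimates show what size of change the spread between arrays leaves room for. Like the p-values, they measure a spread that may be technical, so they set no bound for other cultures. They also depend on the processing: leaving out dim spots, defined further on, moved 8 of 47 treatment estimates by over 0.1. For 43 of the 49 genes the whole 95% interval of the treatment estimate lay within 0.5 of 0 on the log2 scale, and for 48 it lay within 1, which is a doubling or a halving of the ratio. The same held for 84.3% and 97.9% of all genes. The 6 genes whose interval reached beyond 0.5 were Col11a1, Col5a3, Lama4, Itgad, Itga11 and Itga7, and the interval of Itgad, the widest reaching, ran from -0.06 to 1.07. With the swaps turned, where the dye effect stands for treatment, the interval lay within 0.5 for 37 genes (81.6% of all genes) and within 1 for all 49. The 12 genes that then reached beyond 0.5 were Itga2, Lamc3, Lamc1, Col16a1, Col5a2, Itgb1bp2 and the 6 just named. The tightest treatment estimates were those of Itga6 and Itgb1, both with a standard error of 0.05.

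**Figure D1:**
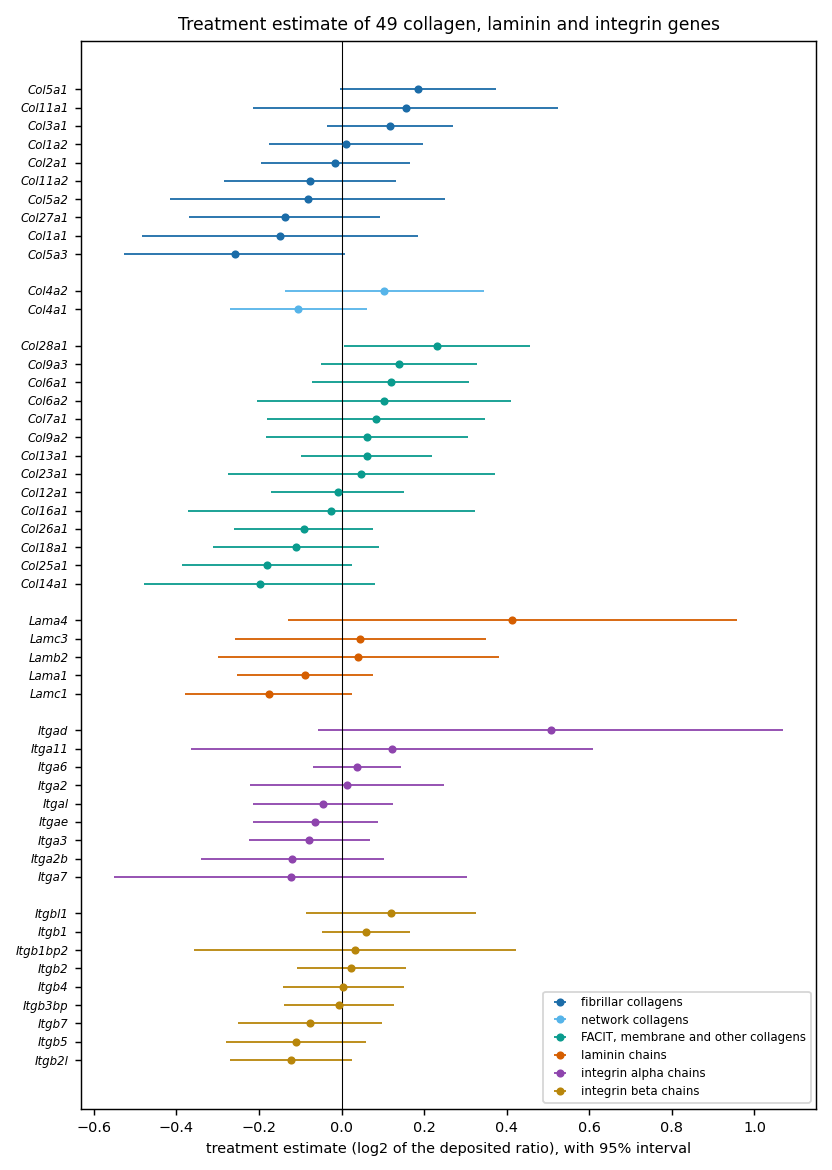
Treatment estimate of each of the 49 fitted genes (points; x axis, log2 of the deposited ratio) with its 95% interval (lines), grouped by family and sorted within it. Every interval crosses 0 except that of Col28a1, which starts at 0.0066, and those of Lama4 and Itgad are the widest.

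Fibrillar collagens, the chains of tensile fibres, lay on both sides of 0: 4 of 10 above and 6 below, with a median of -0.046. Col5a1, the main chain of the collagen that starts fibrils and limits their width, ran from -0.17 to 0.56 with a median of 0.04 when Cy5 marked the treated RNA, and from -0.40 to 1.05 with a median of 0.35 on the dye swaps. It was above 0 on 6 of 8 and 5 of 7 arrays, and the orientations overlapped. Its treatment estimate was 0.19 ± 0.09 (SE, n = 15 arrays; adjusted p = 0.713). Col5a3, another chain of the same collagen, ran from -1.77 to 0.23 (median -0.38) with the treated RNA in Cy5 and from -0.11 to 0.59 (median 0.04) in Cy3. It was below 0 on 7 of 8 arrays of the first kind and on 3 of 7 of the second, which gave an estimate of -0.26 ± 0.13 (adjusted p = 0.713). Partner chains of this collagen thus had estimates on opposite sides of 0, neither of them past the threshold. The difference between the genes was not tested. The 3 probes of Col5a1 differed in size, at 0.01 ± 0.08, 0.18 ± 0.08 and 0.38 ± 0.20, and Col5a3 had 1 probe.

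Col3a1, the fibrillar collagen of distensible tissues such as vessels and skin, was at 0.12 ± 0.07 (SE; adjusted p = 0.764). Col27a1, a fibrillar collagen of cartilage, was at -0.14 ± 0.11. Col1a1, the main chain of bone and skin collagen, was at -0.15 ± 0.16, and its partner Col1a2 at 0.01 ± 0.09. For Col1a1 a pair of arrays carried the low end: array 1 with -1.54 and array 11 with -1.75. The remaining 13 arrays lay between -0.24 and 0.39. Col11a1, a cartilage chain, had an estimate of 0.16 ± 0.17 and a wide spread, from -1.55 on array 15 to 2.24 on array 2. Its probes were at 0.12 ± 0.16 on 15 arrays and -0.08 ± 0.24 on 12 arrays, so the gene's estimate lay above both. Col2a1, Col11a2 and Col5a2, at -0.02 ± 0.08, -0.08 ± 0.10 and -0.08 ± 0.16, made up the rest of the family.

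The network collagens among the named probes were Col4a1 and Col4a2, the standard pair of basement membrane collagen. These genes lie head to head, and their RefSeq starts (GRCm38.p6) overlap, so that 22 bases belong to the start of both. That stretch at chr8:11312805-11312826 is shown because both genes of the pair share it. It reads 5′ to 3′ on the strand of Col4a2, with 1 GC box (GGGCGG) in capitals:
Col4a2 and Col4a1 shared start: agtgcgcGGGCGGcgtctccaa
Col4a1 ran from -0.31 to 0.29 (median 0.04) with the treated RNA in Cy5 and from -0.85 to 0.21 (median -0.21) in Cy3. Its estimate was -0.10 ± 0.08 (SE; adjusted p = 0.796). Col4a2 ran from -0.80 to 0.51 (median 0.18) in the first orientation and from -0.62 to 0.94 (median 0.20) in the second. Its estimate was 0.10 ± 0.11 (adjusted p = 0.851). The estimates had opposite signs, and both were within the spread between arrays.

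Letters of promoters were set beside this for the family. RefSeq windows of 250 bases before to 50 after a gene's start were matched for 32 of the 51 genes. A gene was counted where any of its windows held the letters on either strand, for the family and for all 27025 genes alike. Those 27025 are all annotated genes with a full window, not only the 9834 named on the arrays. The family shares and the shares of all genes thus come from unlike sets of genes. The GC box (GGGCGG) was found in 21 of the 32 genes (65.6%), against 38.2% of all genes. CCAAT was found in 12 (37.5%), against 41.1% of all genes, and TATAAA in 3 (9.38%), against 15.7%. These are matches of letters in short windows and describe no binding.

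The other collagens, which decorate fibrils, span the membrane or anchor epithelia, had 8 of 14 estimates above 0 and 6 below, with a median of 0.054. Col28a1, a collagen known from the surroundings of peripheral nerve, ran from -0.11 to 1.27 (median 0.36) on 7 arrays of the Cy5 orientation and from -0.46 to 0.44 (median -0.07) on 6 dye swaps. It was above 0 on 6 of those 7 arrays and on 2 of those 6, so its mean rested on the first orientation. Its treatment estimate was 0.23 ± 0.11 (SE, n = 13 arrays; unadjusted p = 0.0445, adjusted p = 0.704 in limma). Col25a1, a transmembrane collagen of neurons, was at -0.18 ± 0.10, Col14a1, which coats fibrils, at -0.20 ± 0.13 and Col9a3, a chain of the collagen on cartilage fibrils, at 0.14 ± 0.09. Col6a1 and Col6a2, chains of the beaded filaments around cells, were at 0.12 ± 0.09 and 0.10 ± 0.15. Col16a1, another collagen that coats fibrils, was at -0.02 ± 0.16. The single gene of all 49 that kept to one side of 0 on at least 12 arrays was Col18a1, the basement membrane collagen that yields endostatin, with 12 arrays below 0 and an estimate of -0.11 ± 0.10; it was picked for that count. Over all genes 4.71% did so. Col7a1, Col9a2, Col12a1, Col13a1, Col23a1 and Col26a1 lay between -0.09 and 0.08.

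The laminin chains taken here, which leave out Lama5, had 3 of 5 estimates above 0 and 2 below, with a median of 0.040. Lamc1, the gamma chain of most laminins, ran from -1.35 to 0.07 (median -0.49) with the treated RNA in Cy5 and from -0.36 to 0.47 (median 0.27) in Cy3. It was below 0 on 7 of 8 arrays of the first orientation and above 0 on 5 of 7 of the second. The mean of both was -0.18 ± 0.10 (SE; adjusted p = 0.740). Lama4, the alpha chain of vessel and mesenchymal basement membranes, ran from -0.995 to 1.14 (median 0.23) with the treated RNA in Cy5 and from -0.85 to 3.21 (median 0.27) in Cy3. Its estimate of 0.41 ± 0.26 (adjusted p = 0.764) leaned on array 15: without it the value was 0.19. Lama1, the alpha chain of the earliest laminin of the embryo, was at -0.09 ± 0.08, with 10 of 15 arrays below 0. Lamb2, a beta chain of synapses and kidney filters, was at 0.04 ± 0.16, and Lamc3, a gamma chain of narrow distribution, at 0.05 ± 0.14.

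Integrin alpha chains had 4 of 9 estimates above 0 and 5 below, with a median of -0.045. Itgad, the alpha chain of a leukocyte integrin, ran from -0.93 to 1.24 (median 0.10) on 6 arrays of the Cy5 orientation and from -0.16 to 3.18 (median 0.70) on 6 dye swaps. The value of 3.18 stood alone on array 12. Its estimate was 0.51 ± 0.26 (SE, n = 12 arrays; adjusted p = 0.735). It came to 0.28 when array 12 was dropped and to 0.94 when dim spots, defined further on, were. Among chains that bind laminin, Itga3 was at -0.08 ± 0.07, Itga6 at 0.04 ± 0.05 and Itga7, known from muscle, at -0.12 ± 0.20 with an interval of -0.55 to 0.30. Itga2b, the platelet fibrinogen receptor chain, was at -0.12 ± 0.10. Of the chains of lymphocytes, Itgal, which binds ICAM on other cells, was at -0.05 ± 0.08 and Itgae, which binds E-cadherin on epithelia, at -0.06 ± 0.07. Itga2, a collagen receptor chain, was at 0.01 ± 0.11. Itga11, a collagen receptor chain of fibroblasts, was at 0.12 ± 0.22 on 11 arrays.

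Itga6 had one of the tightest estimates. It ran from -0.003 to 0.33 (median 0.07) with the treated RNA in Cy5, where it was above 0 on 7 of 8 arrays. In Cy3 it ran from -0.31 to 0.16 (median -0.02) and was above 0 on 3 of 7. The 95% interval of its treatment estimate was -0.07 to 0.14, which leaves room for a ratio between 0.953 and 1.10.

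Genes named Itgb had 5 of 9 estimates above 0 and 4 below, with a median of 0.0044. Itgb1, the beta chain shared by most matrix receptors, ran from -0.14 to 0.41 (median 0.16) with the treated RNA in Cy5 and from -0.107 to 0.105 (median -0.02) in Cy3. Its estimate was 0.06 ± 0.05 (SE; adjusted p = 0.819), with a 95% interval of -0.05 to 0.17. Itgb2, the beta chain of leukocyte integrins, ran from -0.36 to 0.43 (median -0.04) in the first orientation and from -0.10 to 0.33 (median 0.05) in the second, with an estimate of 0.02 ± 0.06. Itgb2l, a relative of Itgb2, was at -0.12 ± 0.07 and below 0 on 6 of 8 and 5 of 7 arrays. Itgb4, the chain of hemidesmosomes, was at 0.004 ± 0.07, and Itgb7, the gut-homing chain of lymphocytes, at -0.08 ± 0.08. Itgb5, a partner in vitronectin receptors, was at -0.11 ± 0.08, and Itgbl1, a secreted protein with integrin-like repeats, at 0.12 ± 0.10. Itgb1bp2, a muscle protein that binds the tail of Itgb1, and Itgb3bp, a centromere protein, completed the list at 0.03 ± 0.18 and -0.01 ± 0.06.

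The difference between dye orientations passed the threshold for 1 gene, Itga2. It ran from -1.31 to 0.32 (median -0.44) with the treated RNA in Cy5 and from 0.13 to 1.12 (median 0.45) with it in Cy3. Arrays 1 to 6 were all below 0, arrays 7 and 8 above it, and all 7 dye swaps were above 0, with a small overlap between the orientations. The means were -0.49 ± 0.54 (SD, n = 8 arrays) and 0.52 ± 0.31 (SD, n = 7 arrays), and limma gave a dye effect of -0.51 ± 0.11 (SE; adjusted p = 0.0258). This is 1 of 49 genes (2.04%), against 2.61% of all genes. Without adjustment, 9 genes (18.4%) had a p under 0.05, 7 of them below 0 and 2 above, against 19.5% of all genes. No gene of the 49 had orientations that did not overlap, against 1.44% of all genes. Itga2 has 1 probe, and leaving out any one of arrays 5, 6, 9, 10, 12 or 14 moved its adjusted p to between 0.0504 and 0.0566, with the dye effect between -0.51 and -0.46.

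**Figure D2:**
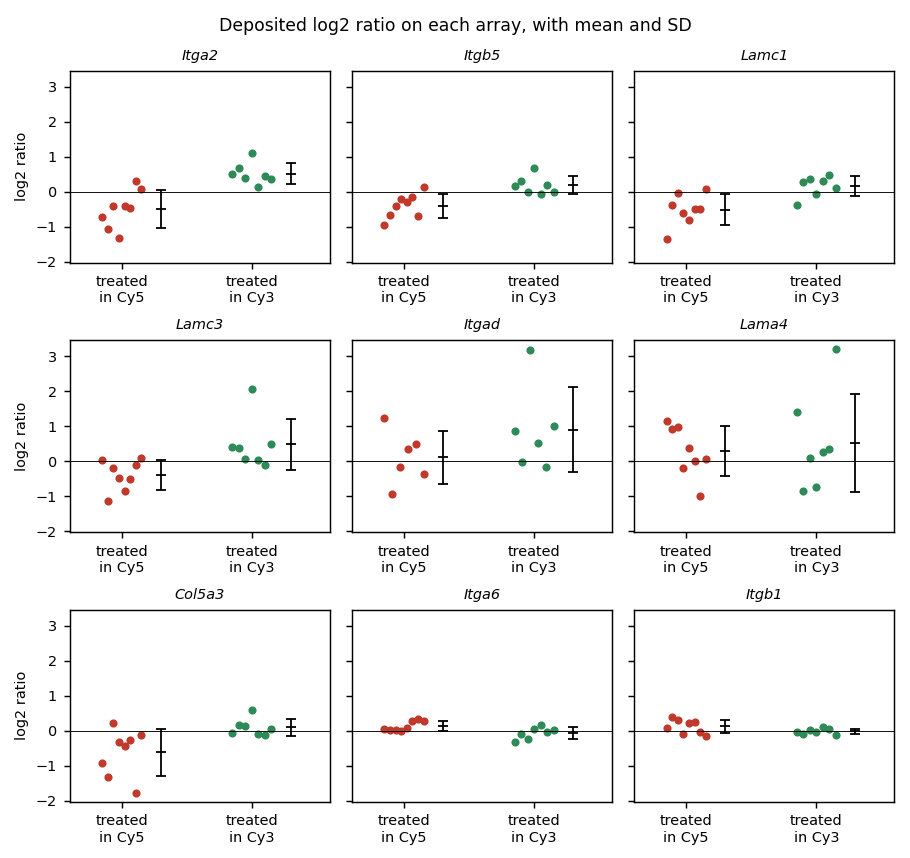
Deposited log2 ratio (y axis) of 9 genes on each array (points), with the treated RNA in Cy5 on the left (up to 8 arrays) and in Cy3 on the right (up to 7), and the mean and SD beside each set. For Itga2 all 7 values with the treated RNA in Cy3 are above 0 and 6 of 8 in Cy5 are below; Itgad and Lama4 have single values of 3.18 and 3.21, while Itga6 and Itgb1 stay near 0.

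Next in the order of p for the dye effect stood Itgb5 and Lamc1. Itgb5 ran from -0.94 to 0.13 (median -0.35) with the treated RNA in Cy5 and from -0.06 to 0.68 (median 0.18) in Cy3. Its dye effect was -0.29 ± 0.08 (SE; adjusted p = 0.0616), and that of Lamc1 was -0.33 ± 0.10 (adjusted p = 0.0694). Both passed when array 8 was left out (adjusted p = 0.0335 and 0.0429) and when arrays 7, 8 and 15 were (adjusted p = 0.0388 and 0.0485). Array 8 held the only value above 0 of either gene with the treated RNA in Cy5. Neither passed without dim spots, defined further on: Itgb5 came to -0.27 (adjusted p = 0.0724 in limma) and Lamc1 to -0.24 (adjusted p = 0.1815). The 3 probes of Lamc1 had dye effects of -0.12, -0.60 and -0.32. Lamc3 was at -0.44 ± 0.14 (adjusted p = 0.107), Col5a3 at -0.36 ± 0.13, Col16a1 at 0.38 ± 0.16, Itgbl1 at -0.22 ± 0.10 and Col28a1 at 0.24 ± 0.11. All 5 laminin chains taken here had a dye effect below 0, with a median of -0.12. Lamc1 and Lamc3 were the ones with an unadjusted p under 0.05. If the swaps were in truth unturned, the treatment values would be these, and Itga2 would be the 1 gene called.

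**Figure D3:**
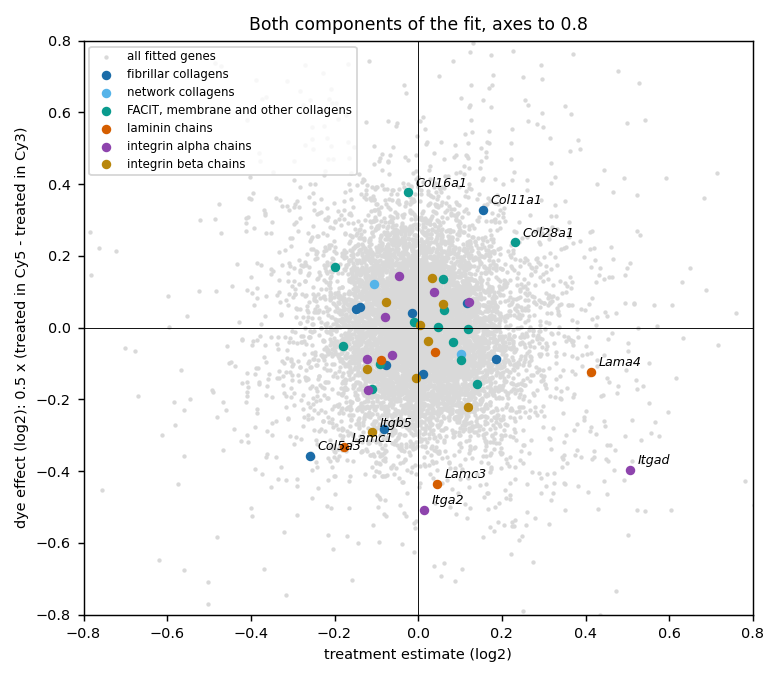
Treatment estimate (x axis, log2) against dye effect (y axis, log2) of the 49 genes, coloured by family, over all fitted genes in grey, with axes ending at 0.8. The 49 points lie within the cloud of all genes; Itga2 is lowest, and Itgad and Lama4 lie farthest to the right.

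On each array the 49 genes had a median that lay between the quartiles of all genes. With the treated RNA in Cy5 their median lay between -0.15 and 0.025, below that of all genes on 7 of 8 arrays. With it in Cy3 the median lay between -0.051 and 0.092, above that of all genes on 5 of 7. The median dye effect of the 49 genes was -0.052, against -0.0034 for all genes, and 57.1% of the 49 were below 0 against 50.8% of all. The widest gap was on array 5, where the median was -0.152 for the 49 genes and 0.015 for all genes. These differences were given no test.

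**Figure D4:**
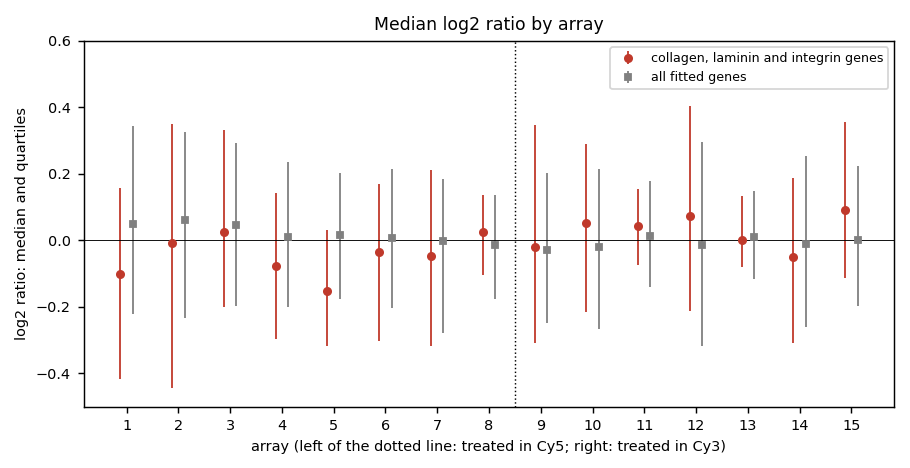
Median log2 ratio (y axis) on each array (x axis) for the 49 genes (red circles) and for all fitted genes (grey squares), with lines between the quartiles. The red medians stay between -0.15 and 0.092 on all 15 arrays.

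Several fitted probes were available for 19 of the genes, which allowed a check within the array. The probes of a gene shared the sign of the treatment estimate in 8 of 19 genes (42.1%), against 44.3% of the 2883 genes with several fitted probes. The 6 probes of Itgb1 all lay above 0, between 0.02 and 0.09, and the 3 probes of Lamc1 all lay below 0, between -0.18 and -0.14. The probes of Itgal were at -0.06 ± 0.09 and -0.04 ± 0.10 (SE). By contrast, the 4 probes of Col4a1 ranged from -0.39 ± 0.26 to 0.09 ± 0.08, and those of Col1a1 were at -0.38 ± 0.27 and 0.08 ± 0.10. Col9a3 had the member probe with the smallest p, at 0.27 ± 0.08 (unadjusted p = 0.00525, adjusted p = 0.602 in limma), beside probes at 0.03 ± 0.07 and 0.12 ± 0.26. Of 80 fitted probes, 0 passed for the treatment estimate, against 0.0503% of all 19863 probes, and 3 had an unadjusted p under 0.05, against 6.87%. For the dye effect 1 passed, that of Itga2, against 2.74% of all probes. Probes of Col4a1, Col5a1 and Col23a1 had dye effects of opposite sign with an unadjusted p under 0.05 for at least 1 of them, which makes 3 of 19 genes, against 24.4% of all genes with several probes. For Col23a1 these were 0.20 ± 0.08 and -0.25 ± 0.30.

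**Figure D5:**
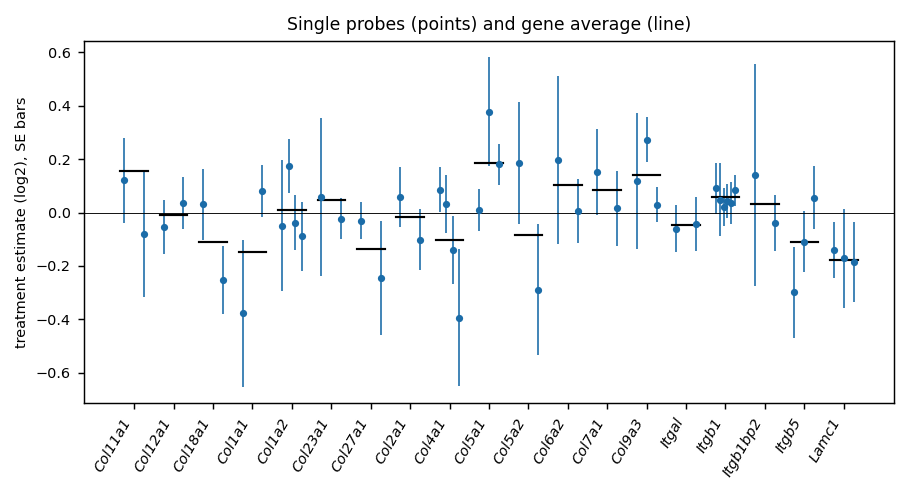
Treatment estimate (y axis, log2, with SE bars) of each probe (points) of the 19 genes with several fitted probes, and the gene's own estimate (black line). The 6 points of Itgb1 sit together just above 0, while those of Col4a1 and Col1a1 spread to -0.39 and -0.38.

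The spread between arrays differed widely among the genes. The standard deviation of the log2 ratio over arrays was 0.163 for Itgb1, 0.177 for Itga6 and 0.214 for Itgb2, and 1.05 for both Lama4 and Itgad, with a median of 0.423 over the 49 genes and 0.373 over all. It moved with the share of values that equalled the log2 of a ratio of small whole numbers plus 1 constant of the array, called dim here since spots of a few signal units give such values. Of the probe values of the members, 11.4% were dim, against 10.3% of all values on the arrays. The 13 genes with no dim value had a median standard deviation of 0.303, the 26 with up to 20% had 0.365 and the 10 with more had 0.699, a bound chosen after the values were seen. Dim values were marked from the ratio itself, so their share and the standard deviation come from the same numbers. Part of this rise may follow from the definition, and how often brighter spots match it by coincidence was not measured. Lama4 had 5 dim values of 15, Itgad 4 of 12 and Itgb1 1 of 87. Leaving dim spots out moved the treatment estimate of 8 of the 47 genes still fitted by over 0.1 and changed the sign of 7. Col11a1 came to -0.15 ± 0.19 (SE) and Col6a2 to -0.10 ± 0.15, both on the other side of 0. Col5a3 came to -0.46 ± 0.12 (adjusted p = 0.372 in limma), Col5a2 to -0.27 ± 0.17, Col28a1 to 0.12 ± 0.09 and Itgad to 0.94 ± 0.28 (adjusted p = 0.519 in limma). Col7a1 came to 0.20 ± 0.13 and Lamb2 to -0.06 ± 0.19. Lama4 came to 0.46 ± 0.27, while its dye effect came to -0.60 ± 0.27 (adjusted p = 0.235 in limma), against -0.12 ± 0.26 with all spots. With dim spots kept and array 15 left out, the dye effect of Lama4 was 0.10 ± 0.19. The dye effect of Itga2 came to -0.42 (adjusted p = 0.0424 in limma) and that of Col5a3 to -0.48 (adjusted p = 0.0496).

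Chains of one protein were compared across arrays after removing the mean of each orientation. Of 16 such pairs, 8 had both genes among the named probes used here, and none passed a two-sided permutation test with 100000 resamples after adjustment over the 8 pairs. Col1a1 and Col1a2 had r = 0.34 (permutation p = 0.195, adjusted 0.778; Spearman's rho 0.17, permutation p = 0.538) over 15 arrays. Without arrays 11 and 1, those farthest from the median of Col1a1, r was 0.13. Col4a1 and Col4a2 had r = 0.23 (permutation p = 0.451, adjusted 0.881; rho 0.26, permutation p = 0.355), and 0.42 without arrays 9 and 11. Within orientations this r was 0.51 on 8 arrays and 0.10 on 7 (exact permutation p = 0.203 and 0.848). Col6a1 and Col6a2 had r = -0.47 (permutation p = 0.116, adjusted 0.778; rho -0.15, permutation p = 0.592), and 0.10 without arrays 1 and 15. For Itgal and Itgb2, the chains of a lymphocyte adhesion receptor, r was 0.12 (permutation p = 0.650; rho 0.30, permutation p = 0.247) and 0.04 without arrays 14 and 10. The remaining pairs were Col5a1 with Col5a2, Itga6 with Itgb1, Itga6 with Itgb4 and Itgae with Itgb7. Their r lay between -0.22 and 0.07, and their adjusted permutation p was 0.881 in each case. Adjusted over the 8 pairs, no p of Spearman's rho was under 0.932. Arrays that share RNA would not be independent, which the labels do not settle.

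Genes that work with these proteins were taken from lists of known partners. None of 13 basement membrane partners, 21 genes of collagen processing, 27 further integrin ligands, 29 genes of the integrin adhesion machinery, 10 other matrix receptors and 17 matrix proteases and inhibitors passed for the treatment estimate. Their medians were 0.025, 0.039, 0.048, -0.034, -0.022 and 0.028 in this order, and with the swaps turned 0.0061, -0.0063, -0.038, 0.021, -0.051 and -0.058. The gene with the smallest p was Smoc2, a basement membrane protein, at 0.20 ± 0.11 (SE) in the first list. It was Bmp1, which trims procollagen, at -0.36 ± 0.15 in the second, and Ccn2, a matrix-bound growth regulator, at -0.18 ± 0.07 in the third. In the last 3 lists it was Enah, an actin regulator at adhesions, at 0.24 ± 0.09, Cd44, the hyaluronan receptor, at -0.15 ± 0.09, and the collagenase Mmp13 at -0.36 ± 0.08 (adjusted p = 0.145). For the dye effect, Sharpin, an inhibitor of integrin activation, and Rap1b, a small GTPase that activates integrins, passed at 0.32 ± 0.06 and 0.27 ± 0.05 (adjusted p = 0.0194 and 0.0197 in limma).

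Cell types that make or carry these proteins were watched through their markers. Over all genes 52.0% of the treatment estimates were above 0, and 49.2% with the swaps turned. Fibroblast markers had 7 of 14 treatment estimates above 0 with a median of 0.0054, and 5 with a median of -0.056 when turned. Endoderm markers had 3 of 11 (median -0.067), and 6 when turned (median 0.027). Endothelial markers had 1 of 9 (median -0.078), and 4 when turned (median -0.106). Myeloid markers had 2 of 14 (median -0.095), and 10 when turned (median 0.092), so their side of 0 hangs on the direction of the ratio. Markers of megakaryocytes and platelets had 3 of 5 (median 0.119), and 4 when turned (median 0.035). Lymphoid markers had 8 of 13 (median 0.035), and 5 when turned (median -0.033). Pluripotency markers had 5 of 9 (median 0.052), and 3 when turned (median -0.022). Epithelial markers had 5 of 9 (median 0.0058), and 2 when turned (median -0.211). No marker passed for the treatment estimate, and for the dye effect the myeloid genes S100a9 at 0.31 ± 0.06 and Cybb at 0.38 ± 0.09 did (adjusted p = 0.0127 and 0.0339 in limma). The ratios hold no summed level of such markers. The part of such cells in the values of collagens, laminins and integrins was not tested.

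The 2 genes left out of the fit had too few values. Col6a4, a chain of a collagen VI relative, was measured on 7 arrays of the Cy5 orientation, from -1.05 to 2.27, and on 3 dye swaps, from -0.43 to 0.62, and 8 of its 10 values were dim. Itga9, an integrin chain that binds tenascin and VCAM, had 5 values, -0.72 and 0.41 with the treated RNA in Cy5 and -2.41, 0.44 and -1.33 in Cy3. A further 5 of its readings were placeholders for an empty channel.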

How the data were processed

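The file holds log2 ratios of both channels as deposited by the authors, for 20205 probes on 15 arrays; their normalization, background correction and direction are not stated in the sources used here. Values with an absolute log2 above 10 (1999) were set missing. Probes were named from the platform annotation (1 symbol for 13891, several for 5, none for 6309), with 13855 identifiers matched to RefSeq (GRCm38.p6), and averaged per gene on each array. Between 19213 and 19973 probes per array were measured. The fit used limma 3.58.1 in R 4.3.3 (functions lmFit, then eBayes) with a dye term on genes measured on 4 or more arrays in each orientation, two-sided, with Benjamini-Hochberg adjustment over all 9720 genes and a threshold of 0.05. The fit was tried on simulated data of independent normal noise with added shifts. These held no dye effects and no shared RNA, so that trial does not bear on either. Genes with full values in the text are those past a threshold, the 4 smallest p for treatment and 2 for dye per family, both genes of each pair run, genes whose probes disagree, and the smallest p of each pathway list. Pairs were tested in Python 3.11.15. The members and lists were chosen with earlier results of these data known. The number of arrays limits the precision.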

Additional observations from a re-analysis of the deposited data

Results flagged for a closer look

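The ratio of Itga2 differed between dye orientations by limma's test of that difference, with a dye effect of -0.51 ± 0.11 (SE; adjusted p = 0.0258). It averaged -0.49 on the Cy5 arrays and 0.52 on the dye swaps, and the treatment estimate was 0.01. Of its 15 values 2 were dim. The dye effect came to -0.42 when these were dropped and to -0.64 when arrays 7, 8 and 15 were. Arrays 7 and 8 held the only Cy5 values of Itga2 above 0 (0.32 and 0.082). Dropping them thus lowers its Cy5 mean by construction, and the value of -0.64 is no check of the effect.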

How the results depend on the processing

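The count of collagen, laminin and integrin genes past the threshold for the treatment estimate was 0 under every alternative run, including each of the 15 arrays left out in turn (0 to 0), except with the dye swaps turned, where by construction it was 1 (Itga2 at -0.51). The count for the dye effect was 1. It became 2 with dim spots left out (with Col5a3), 2 over genes with values on all 15 arrays (with Itgb5), 2 with array weights (with Lamc1), 3 without arrays 7, 8 and 15 and 0 with the swaps turned (Itga2 at 0.014). Leaving out single arrays gave 0 to 3: it was 0 without array 5, 6, 9, 10, 12 or 14 and 3 without array 8. Medians of the treatment estimate ran from -0.024 to 0.017 without single arrays and from -0.052 (swaps turned) to 0.028 (Cy3 alone) otherwise. Those of the dye effect ran from -0.067 to -0.031 and from -0.069 to 0.0044. The treatment estimate changed sign in 0 to 7 of 49 genes without single arrays, in 7 of 47 with dim spots left out, in 10 with array weights, in 12 from the Cy5 orientation alone, in 18 from the Cy3 orientation alone and in 24, Itga2 among them, with the swaps turned. Each array pairs treated with untreated RNA, and the test of its log2 ratio against 0 uses that pair. Arrays could not be matched by shared RNA or culture, because the labels do not give either. The array ratios carry no signal intensities, so what brightness limits could be followed only through the dim spots, which were recognized from the ratios themselves.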
